A study of Mus musculus with 10 samples.

Results

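H3K27me3 in the R500 lymphoma line was compared with H3K27me3 in the R100 line, peak by peak and gene by gene. Both are mouse B-cell lymphoma lines of strain C57BL/6J and genotype Cdkn2a-/-, Eμ-Myc. In the Eμ-Myc model an immunoglobulin heavy chain enhancer drives Myc in cells of the B lineage, and the parental line was cultured from lymphoma cells of such mice. It was then taken through increasing doses of mafosfamide, an alkylating agent related to cyclophosphamide. R100 is the population that survived 100 nM and was harvested on day 10, and R500 survived 500 nM and was harvested on day 18, so the dose and the time in culture cannot be told apart. The study describes the resistant lines as clones taken at steps of the escalation. For the ChIP-seq all lines were grown without the drug, and the lists of the parental, R1000 (1000 nM, day 23) and R4000 (4000 nM, day 37) lines were used here only to see where else a region was found. Distinct peaks of the R100 and R500 lists were joined into regions wherever they overlapped or touched. A region with a peak of both lines was called kept, one with a peak of R100 alone lost, and one with a peak of R500 alone gained. In 998 of the kept regions the peaks of the lines only touched, so that no base was covered in both. These names describe the lists and not an event seen in a culture. There were 35961 such regions, out of 44247 in the union of all 5 lists, and 9014 were kept (25.1%), 15188 lost (42.2%) and 11759 gained (32.7%).

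H3K27me3 is the trimethyl mark on lysine 27 of histone H3 that Polycomb repressive complex 2 (PRC2) writes through its catalytic subunits Ezh1 and Ezh2. It is found where transcription is kept off, often over CpG islands of developmental regulators such as the Hox genes, where it can extend over many kilobases. Subunits of PRC1 bind the mark, demethylases remove it, and in B cells PRC2 is known for its part in the germinal centre and in lymphoma.

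The processed data are 1 list of peak positions per line on a grid of 50 bp, with no height, score or read count. The sequencing depth is therefore unknown, and fewer reads and fewer marked sites cannot be told apart. Replicate spread cannot be seen from 1 list a line, so R100 and R500 are compared without a test; intervals are 95% Wilson intervals and cover counting alone. The R100 list held 25180 peaks over 5.04 Mb and the R500 list 21888 peaks over 4.53 Mb, which is 0.869 times the number and 0.9 times the covered length. No peak lay within the promoter windows of Cdkn2a in any of the 5 lists, which cannot check the deletion since most promoters had none. As a check of the label, genes with at least 150 bp covered within 2 kb of the transcription start site (TSS) were counted. Of all protein-coding genes 11.3% were kept, 6.18% lost and 2.05% gained by this measure, of 23 B-cell receptor and surface genes 4 were kept, 2 lost and 2 gained, and of 25 T-cell, myeloid and erythroid genes 4 were kept. The mark is not a measure of expression, so these counts do not test the label.

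The middle 300 bp of some of the widest regions are given as sequence. These are single examples and do not stand for their classes. Each is read 5′ to 3′ on the plus strand of mm9, with every CG dinucleotide in capitals, because CpG content differed between kept, lost and gained regions. The kept region at Hoxa11, a homeobox gene, is shown at chr6:52194726-52195025, which lies mostly in the intron of Hoxa11 and within an exon of its antisense transcript, and holds 12 CpG at 45.7% GC. The widest lost region, in the coding sequence of Shc4, an adaptor protein, is shown at chr2:125548601-125548900 and holds 11 CpG at 59.0% GC. The next lost region, intergenic at chr6:70871626-70871925 and 2530 bp from the TSS of 1700011F03Rik, holds 6 CpG at 53.3% GC. The widest gained region, mostly in an intron of Sema6c, a semaphorin, is shown at chr3:94966051-94966350 and holds 0 CpG at 49.0% GC. The next gained region, intergenic at chr16:17833051-17833350 and 4857 bp from the TSS of Car15, a carbonic anhydrase, holds 6 CpG at 53.7% GC.
Hoxa11, kept: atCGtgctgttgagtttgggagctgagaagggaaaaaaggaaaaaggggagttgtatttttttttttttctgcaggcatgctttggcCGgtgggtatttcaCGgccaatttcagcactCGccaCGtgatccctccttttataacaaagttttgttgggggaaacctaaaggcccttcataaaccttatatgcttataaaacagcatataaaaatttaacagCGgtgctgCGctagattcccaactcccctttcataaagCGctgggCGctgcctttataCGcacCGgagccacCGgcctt
Shc4, lost: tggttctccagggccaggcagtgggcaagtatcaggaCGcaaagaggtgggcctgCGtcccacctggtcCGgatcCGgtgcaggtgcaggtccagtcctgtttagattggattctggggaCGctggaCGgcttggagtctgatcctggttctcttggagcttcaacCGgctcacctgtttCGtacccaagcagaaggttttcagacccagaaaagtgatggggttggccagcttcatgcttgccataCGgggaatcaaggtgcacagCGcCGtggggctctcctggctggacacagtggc
near 1700011F03Rik, lost: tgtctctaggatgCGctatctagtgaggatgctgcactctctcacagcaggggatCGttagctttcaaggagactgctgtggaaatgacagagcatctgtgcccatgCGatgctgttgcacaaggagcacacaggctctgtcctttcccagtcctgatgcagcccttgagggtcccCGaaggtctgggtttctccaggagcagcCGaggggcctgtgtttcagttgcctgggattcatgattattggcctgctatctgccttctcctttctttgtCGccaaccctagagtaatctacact
Sema6c, gained: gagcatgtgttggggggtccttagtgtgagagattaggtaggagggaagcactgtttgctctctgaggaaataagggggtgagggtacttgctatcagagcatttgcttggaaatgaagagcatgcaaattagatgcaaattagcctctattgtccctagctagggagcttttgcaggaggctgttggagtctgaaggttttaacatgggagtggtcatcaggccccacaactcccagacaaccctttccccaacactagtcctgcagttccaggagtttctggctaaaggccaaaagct
near Car15, gained: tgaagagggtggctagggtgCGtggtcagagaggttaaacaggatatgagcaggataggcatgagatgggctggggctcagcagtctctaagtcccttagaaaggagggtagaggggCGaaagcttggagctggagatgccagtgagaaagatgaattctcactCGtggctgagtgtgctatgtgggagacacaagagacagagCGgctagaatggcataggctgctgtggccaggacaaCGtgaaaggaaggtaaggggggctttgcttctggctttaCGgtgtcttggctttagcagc

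Of the R100 peaks, 8834 overlapped a peak of R500 (35.1%, 95% CI 34.5 to 35.7%), and of the R500 peaks 8947 overlapped a peak of R100 (40.9%, 95% CI 40.2 to 41.5%). The share depended on the width of the peak. Of R100 peaks with a width of 50 bp, 9.07% were found in R500, against 22.0% at 100 bp, 45.4% at 150 to 250 bp, 77.7% at 300 to 450 bp and 96.9% at 500 to 950 bp. All 561 R100 peaks from 1000 bp to under 2000 bp and all 92 of at least 2000 bp overlapped a peak of R500. In the other direction the shares were 12.7, 26.4, 54.5, 85.5 and 97.5%, and all 551 and 92 of the widest R500 peaks were found in R100. Each width class of R500 under 1000 bp was thus found in R100 more often than the same class of R100 in R500, and R100 is the longer list. Peaks of 50 bp made up 31.2% of the R100 list and 30.6% of the R500 list. Peaks of at least 500 bp made up 8.93 and 9.72%, but held 40.7% and 43.0% of the covered length. Of these wide peaks, 49 of 2249 in R100 and 37 of 2127 in R500 had no counterpart.

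**Figure D1:**
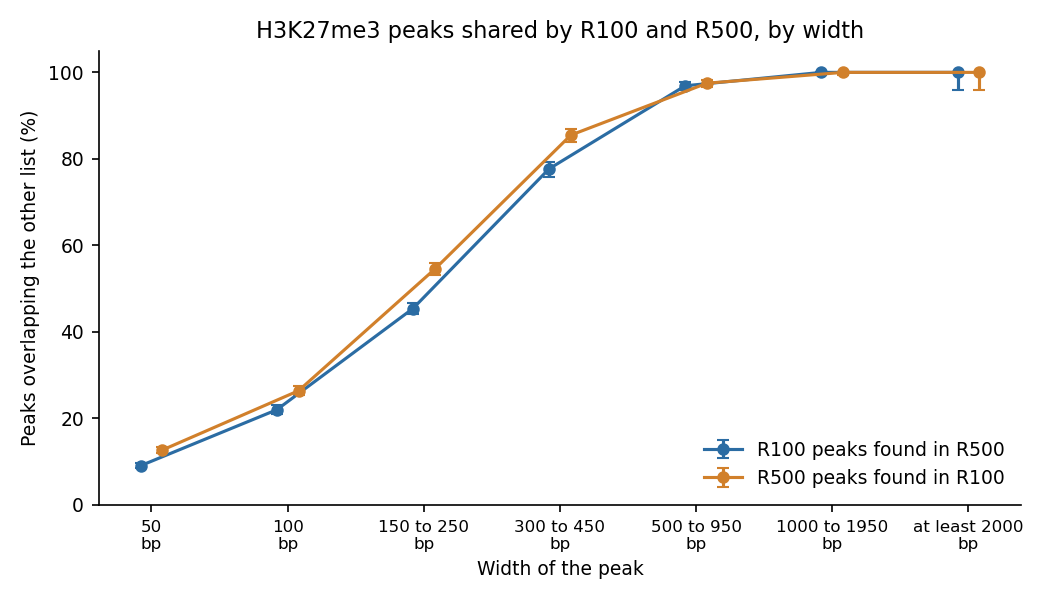
Share of the peaks of either line overlapping the other line's list by 1 bp or more (percent, vertical axis) in 7 classes of peak width (horizontal axis); bars are 95% Wilson intervals, which cover counting alone. The share climbs from 9.07% (R100) and 12.7% (R500) at 50 bp to 100% in both lists from 1000 bp.

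The wide domains of the mark were present in both lines, and the regions of 1 line alone were narrow. Kept regions had a median width of 350 bp, while lost and gained regions had a median of 100 bp and reached no further than 800 and 900 bp. A kept region joins peaks of both lists, so part of this difference follows from the definition. Within kept regions the median covered length was 250 bp in R100 and 200 bp in R500. Lost regions held 1530 kb, or 30.3% of the bases covered in R100, and gained regions 1130 kb, or 24.9% of the bases covered in R500. There were 1.29 lost regions per gained region. Of all bases covered in either line, 34.4% were covered in both, and the edges of kept regions differed as well.

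The other 3 lists took no part in naming the regions, and they separated kept regions from the rest. Of the kept regions, 36.8% overlapped a peak of the parental line (95% CI 35.8 to 37.8%), 42.1% a peak of R1000 and 32.5% a peak of R4000. Of the lost regions the shares were 2.88% (95% CI 2.62 to 3.16%), 3.34% and 2.32%, and of the gained regions 4.81% (95% CI 4.44 to 5.22%), 4.25% and 2.35%. Gained regions were thus found more often than lost ones in the parental list, while the shares in R4000 were close (intervals 2.1 to 2.58% and 2.09 to 2.64%). In none of the 3 other lists were 92.4% of the lost and 90.4% of the gained regions, against 41.9% of the kept ones. Those lists are much shorter, with 10778 (parental), 9595 (R1000) and 6820 (R4000) peaks over 1.63, 1.61 and 1.07 Mb. Of all regions of R100 or R500, 79.1% were in none of them, so absence alone says little about a region. Kept regions are wider, and a wide region can meet a peak more easily. At 150 to 450 bp, where widths are closer, a parental peak was found in 23.2% of the kept, 6.51% of the lost and 12.4% of the gained regions.

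The longest kept region was 6000 bp in both lines and lies at AY036118 on chromosome 17 from 39979851 to 39985850. R1000 and R4000 each covered 5950 bp of it and the parental line 1750 bp. It is a ribosomal RNA locus. The lists hold no reads, so whether reads from other copies of ribosomal RNA add to it cannot be seen, and its length is uncertain. From here on a pair of lengths gives R100 and then R500. Next came Hoxa11 (4950 bp in R100 and 4900 bp in R500) and Hoxa10 (4950 and 4800 bp), both posterior Hox genes. Sp9, a zinc finger factor of the developing brain and limb, was covered over 4600 bp in both lines. The region 182 bp from the TSS of Atf3, a stress-response transcription factor, was covered over 3950 bp in both, and a region at Wnt10a, a secreted Wnt ligand, over 4150 and 3900 bp. These 6 regions differed by at most 250 bp between the lines, and all 6 were also found in the 3 other lists.

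Among the 42 lost regions of at least 500 bp, the widest lay in the first coding exon of Shc4 (800 bp in R100, none in R500), where the parental line had 350 bp and R1000 had 150 bp. Lost regions of 650 bp lay near 1700011F03Rik, in Celf5, a splicing regulator, and in an intron of Epas1, which encodes a hypoxia-inducible factor. Lost regions of 600 bp lay in Bcl2l1, the anti-apoptotic gene of Bcl-xL, in Megf9, 229 bp from its TSS, in Pax7, a muscle and neural crest factor, and in Nkx6-3, a homeobox gene of the gut. Of these 8 regions, 6 had a peak of R500 within 1 kb, while Celf5 and Bcl2l1 had none.

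Among the 32 gained regions of at least 500 bp, the widest lay in Sema6c (900 bp in R500 and none in R100) and near Car15 (800 bp). Introns of Fam163a and of Klf3, a Kruppel-like factor, gained 700 bp each, an intron of Ctif 650 bp, and regions near Lrig1 and in Sim1 600 bp each. At Klf3 the parental line had 500 bp, against 0 in R100. Lrig1, a feedback inhibitor of receptor tyrosine kinases, had 600 bp in R500 and 0 in R100, while the parental and R1000 lines had 150 bp each and R4000 had 200 bp. At Car15, Klf3 and Lrig1 no peak of R100 lay within 1 kb.

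In kept regions, R500 covered more bases in 3526, R100 in 3991, and 1497 were equal, with a summed length of 3510 kb in R100 and 3400 kb in R500. Among kept regions of at least 500 bp, the median covered length was 650 bp in both lines. The longer R500 coverage was greatest 11151 bp from the TSS of Enthd1 (400 and 1600 bp), at Lepre1 (750 and 1750 bp), in an intron of Fgfr2 (1800 and 2800 bp, nearest TSS Hmx3), in an intron of Wnt10a (300 and 1250 bp) and at Hoxa7 (3800 and 4750 bp). The shorter R500 coverage was greatest at Btbd17 (1600 and 150 bp), Tmem132e (3950 and 2550 bp), Tbx4, a hindlimb T-box gene (1400 and 150 bp), Antxr1 (2900 and 1800 bp) and Sept5 (1750 and 700 bp). The first 3 of the latter lie on chromosome 11. A domain that was 1 peak in 1 line was often several in the other, as 280 of the 653 R100 peaks of at least 1000 bp (42.9%) met more than 1 R500 peak.

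The balance of lost and gained regions moved with base composition. The median GC content of the 300 bp around the middle was 54.7% in kept, 52.3% in lost and 49.7% in gained regions, and the median number of CpG in those 300 bp was 10, 6 and 4. Below 40% GC there were 91 lost and 266 gained regions, or 0.342 lost per gained. At 40 to 45% the ratio was 0.51, at 45 to 50% it was 0.988, at 50 to 55% it was 1.53, and at 65 to 70% it was 2.64 (864 lost and 327 gained). Regions of at least 70% had 2.23. Up to 55% GC the order was alike close to and far from genes. At 40 to 45% the ratio was 0.491 within 2 kb of a TSS and 0.524 over 5 kb away. At 50 to 55% it was 1.59 and 1.54. Above 55% the order differed. Within 2 kb the highest ratio was 2.74, at 65 to 70%, and over 5 kb away it was 2.14, at 55 to 60%. Regions of at least 150 bp ran from 0.25 below 40% to 3.75 at 65 to 70%, and regions of 50 bp from 0.389 to 2.19. Kept regions followed the same course. R500 covered 1.25 times the bases of R100 in kept regions of 40 to 45% GC and 0.907 times at 65 to 70%. The part of base composition in the difference between the lists was not tested.

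**Figure D2:**
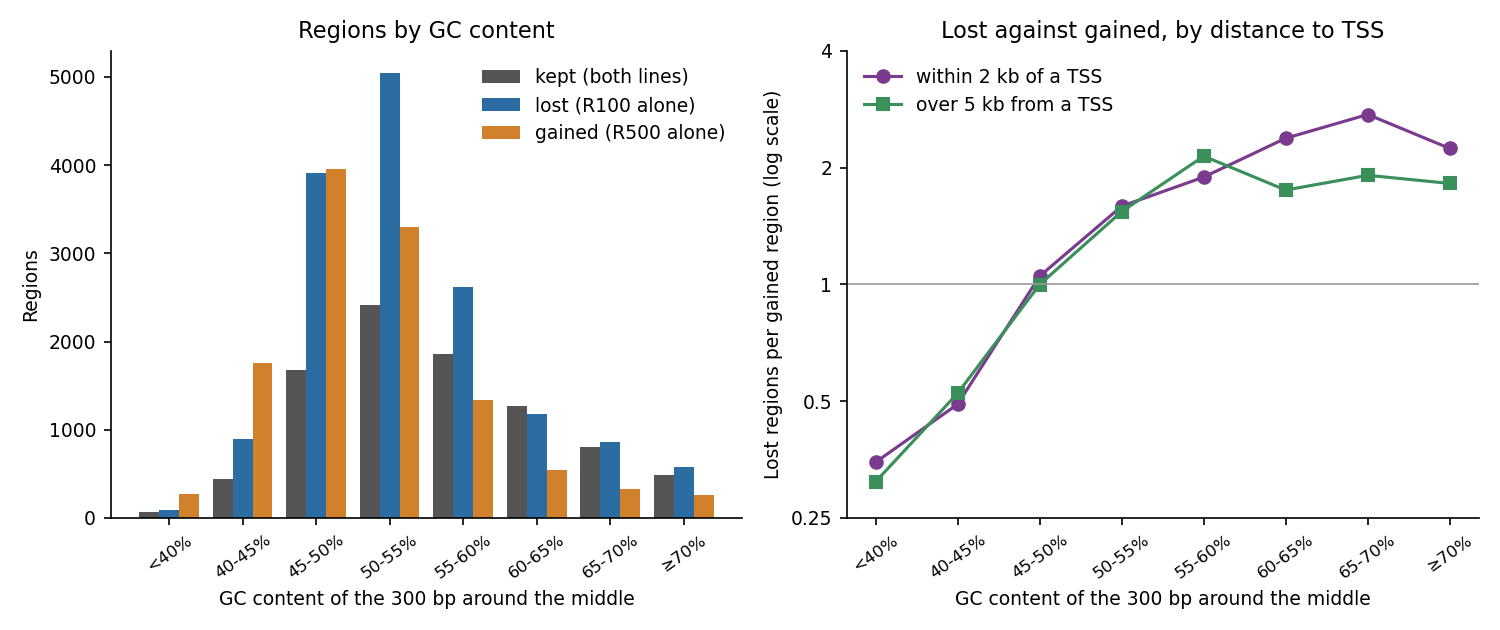
Left, the number of kept, lost and gained regions (vertical axis) by GC content of the 300 bp around the middle of the region (horizontal axis, percent). Right, lost regions per gained region on a log scale, for regions within 2 kb of a TSS and over 5 kb from one, with a line at equal numbers; both series start below 0.35 and lie above 1.5 from 50% GC.

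Chromosome 11 stood apart. It held 2667 peaks in R100 and 1847 in R500, a ratio of 0.693, with 1714 lost and 874 gained regions (1.96 lost per gained). On chromosome 1 the 2 lists were nearly equal, with 2061 and 2107 peaks (1.02) and 1209 lost and 1250 gained regions (0.967). On the remaining numbered chromosomes and X the ratio of R500 to R100 peaks lay between 0.814 and 0.976, and chromosome Y had 2 peaks, both in R100. The excess of lost regions on chromosome 11 was seen within 2 kb of a TSS (2.23 lost per gained), at 2 to 5 kb (1.58) and beyond 5 kb (1.96), where the chromosomes other than 1 and 11 had 1.55, 1.08 and 1.16. It was also seen within a class of base composition: at 50 to 55% GC the ratio was 2.34 on chromosome 11 and 1.46 on all others together. Without chromosome 11 the ratio of lost to gained regions over the genome was 1.24.

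Kept regions lay closer to genes than the others. A TSS lay within 2 kb of 58.0% of the kept (95% CI 57.0 to 59.0%), 38.4% of the lost (95% CI 37.6 to 39.2%) and 31.3% of the gained regions (95% CI 30.5 to 32.1%). Exons overlapped 38.5, 20.5 and 14.3% of them. Lost regions outnumbered gained ones by 1.59 to 1 within 2 kb of a TSS, by 1.11 at 2 to 5 kb, by 1.18 at 5 to 50 kb and by 1.16 beyond 50 kb. Near the starts of 22367 protein-coding genes, the difference was largest just downstream. At 300 bp downstream, both lines covered 823 genes, R100 alone 930 and R500 alone 420. At 300 bp upstream these were 468, 452 and 255. At 500 bp downstream the numbers were 820, 725 and 385, and at 1000 bp 511, 339 and 304. At 2000 bp upstream both lines covered 86 genes, R100 alone 97 and R500 alone 100. The lines were thus close in number 2 kb upstream.

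**Figure D3:**
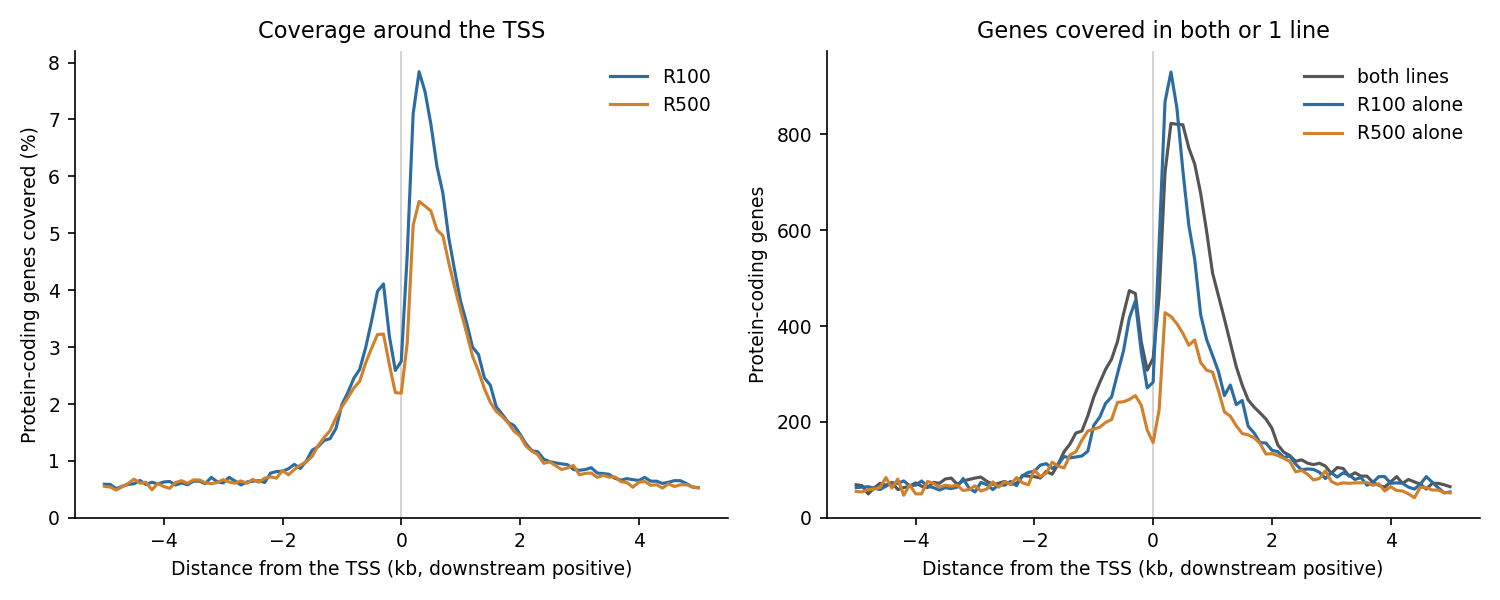
Left, the share of the 22367 protein-coding genes whose position at each distance from the TSS (kb, downstream positive) was covered by a peak of R100 or of R500 (percent). Right, the number of genes covered at that distance in both lines, in R100 alone and in R500 alone; at 300 bp downstream these are 823, 930 and 420.

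A promoter was counted as covered where peaks took up at least 150 bp (3 steps of the grid) of the 5 kb upstream of its TSS. Of the 22367 protein-coding genes, 1432 promoters were kept (6.4%), 612 were lost (2.74%) and 395 gained (1.77%). R500 thus kept 70.1% of the promoters covered in R100, and 78.4% of the promoters covered in R500 were covered in R100. Counted within 2 kb on either side of the TSS instead, 2517 genes were kept (11.3%), 1383 lost (6.18%) and 459 gained (2.05%). In that window lost genes outnumbered gained ones in every class of GC content, by 2.56 to 1 below 45% and by 3.87 to 1 at 55 to 60%. In the 5 kb upstream the ratio was 1.14 below 45% and 2.33 at 55 to 60%. Within 2 kb the median GC content was 50.2% for lost and 49.9% for gained genes. These values are for whole windows, and those of regions for 300 bp, so the 2 cannot be compared. The part of base composition in these counts was not tested. A lost or gained promoter often had some coverage in the other line: 336 of the 612 lost promoters had 0 bp in R500, and 173 of the 395 gained ones had 0 bp in R100. Called in both windows with 0 bp in the other line, 142 genes were lost and 45 gained.

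Kept promoters were again found elsewhere more often than lost or gained ones. Their median coverage upstream was 550 bp in each line, against 200 bp for lost ones in R100 and for gained ones in R500. Longer coverage can reach the minimum of 150 bp in another list more easily. The parental list covered 46.9% of the kept promoters upstream (95% CI 44.4 to 49.5%), 5.72% of the lost (95% CI 4.14 to 7.85%) and 9.62% of the gained ones (95% CI 7.09 to 12.9%). R1000 covered 52.8, 5.07 and 12.4%, and R4000 37.8, 2.45 and 6.58%. The intervals of lost and gained promoters were 3.59 to 7.1% and 9.51 to 16.0% in R1000. In R4000 they were 1.49 to 4.0% and 4.53 to 9.47%. Within 2 kb they were 3.64 to 5.87% and 7.03 to 12.4% in R1000, and 2.69 to 4.65% and 4.25 to 8.68% in R4000. Promoters can share a peak, so these intervals are too narrow, and they do not test lost against gained promoters.

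Of the promoters lost upstream, Mpzl2, an adhesion gene, had 907 bp in R100 and 0 in R500, with 150 bp in the parental line. Matn4, a matrix protein, had 840 and 100 bp, and Tbx5, the T-box factor of heart and forelimb, 700 and 0 bp with 400 bp in R1000. Pdzd7 (650 and 0 bp), Cygb, a globin (673 and 50 bp), Arhgef40 (600 and 0 bp), Gm17641 (612 and 62 bp) and Apoh, a plasma glycoprotein (550 and 0 bp), completed the 8 with the largest change. Within 2 kb of the TSS 5 of these 8 were kept, among them Mpzl2 with 1443 and 700 bp, so these had peaks of R500 nearer the start site. Of the promoters lost in both windows with none in R500, the widest were Lrrc24 (500 bp in each window), Ush1g (445 bp upstream and 550 bp within 2 kb), Cacna1s, the calcium channel of skeletal muscle (500 bp upstream and 374 bp within 2 kb), Krba1, Tti1, Tas1r1, a taste receptor, Lyzl6 and Slc15a4, a lysosomal transporter. In none of these 8 did the parental list hold a peak.

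Of the promoters gained upstream, Fzd7, a Wnt receptor, had 0 bp in R100 and 850 bp in R500, while the parental line had 150 bp and R1000 had 300 bp. Lrig1 and Irs2, an adaptor of insulin signalling, each had 100 and 950 bp. Car11 had 112 and 862 bp, Il20ra, a cytokine receptor subunit, 0 and 742 bp, Gpbp1 100 and 750 bp, Ppp1r1b 117 and 667 bp, and Traf6, a ubiquitin ligase of NF-kB signalling, 0 and 515 bp. At 6 of these 8 the 2 kb window was kept, for example with 1650 and 1900 bp at Fzd7 and 800 and 1402 bp at Lrig1, so R500 had peaks further upstream of a start that was covered in both lines. Genes gained in both windows with none in R100 had at most 450 bp; they were led by 1700034F02Rik (450 bp in each window), Prune (400 bp), Slc9a8, a sodium and proton exchanger (250 bp upstream and 400 bp within 2 kb), and Arpc5l, a subunit of an actin nucleator (350 bp upstream and 250 bp within 2 kb). Srxn1, an antioxidant enzyme, had 250 bp upstream and 300 bp within 2 kb, and Aipl1, Gm11129 and Fam101a had at most 400 bp. The TSS of 1700034F02Rik (29447950 on chromosome 11) lies beside that of Rps27a (29448109), and the same peak counts for both.

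Kept promoters with longer coverage in R500 were Nckap1 (800 and 2000 bp), Hnrpll, a splicing regulator of lymphocytes (1976 and 3176 bp), Gm6320 (1800 and 2900 bp), Prrt1 (1050 and 2150 bp) and AU022252 (750 and 1750 bp). Those with shorter coverage were Gp1bb, a platelet receptor subunit (2550 and 950 bp), Ppm1j (1550 and 400 bp), Lrrc32 (3000 and 1850 bp), Cntn2 (1300 and 200 bp) and Pdgfra, a receptor tyrosine kinase (1550 and 550 bp). Over all kept protein-coding promoters R500 was longer in 621, R100 in 685, and 126 were equal.

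Gene lists are given within 2 kb of the TSS unless stated, to be read beside 11.3% kept, 6.18% lost and 2.05% gained among all protein-coding genes. Homeobox genes, classical targets of PRC2, were mostly kept where R100 covered them. Of the 40 Hox entries, which hold Hoxa3 under 2 identifiers, 33 were kept and none was lost or gained in this window. Upstream, Hoxb2 (200 bp in R100 and 0 in R500) was lost and Hoxd8 (0 and 150 bp) gained. Lengths at Hox genes differed in both directions: Hoxc12 had 1650 bp in R100 and 2500 in R500, and Hoxc13 had 1650 and 1000 bp. Over the clusters, 34 regions of Hoxa were kept, 7 lost and 5 gained, and 39.0 kb were covered in both lines out of 43.6 kb in R100 and 43.3 kb in R500. In Hoxb 44 were kept, 31 lost and 13 gained, and in Hoxc 85, 15 and 32. Hoxd, with 24 kept, 17 lost and 21 gained, had 3.4 kb in common out of 8.15 kb in R100 and 8.95 kb in R500. Hoxb lies on chromosome 11, which had 1.96 lost regions per gained region, against 1.24 on all others together. The part of the chromosome in the Hoxb counts was not tested.

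Of 47 paired-box genes and homeobox genes of the LIM, Irx, Nkx and related families, 27 were kept, 1 was lost (Nkx6-1, 200 and 0 bp) and none gained. Lhx1, a LIM homeobox gene of kidney and brain, had 3701 bp in both lines, while Pax3 had 1150 and 2351 bp and Lhx6 923 and 150 bp. Of 20 Otx, Emx, Dlx, Msx, Gsx, Barx and Barhl entries 14 were kept and 2 lost, namely Dlx6 (200 and 0 bp) and Msx2 (150 and 100 bp). Otx1 had 2401 and 1450 bp. Of 35 Sox and T-box entries 14 were kept and Sox17 (150 and 100 bp), Sox18 (200 and 100 bp) and Tbx5 (329 and 122 bp) lost. Tbx2 had 1853 and 2453 bp and Eomes 2300 and 1800 bp. Of 21 proneural bHLH genes, which drive neuronal fate, 10 were kept and none lost or gained, with longer R500 coverage at Neurog2 (2147 and 3297 bp) and Bhlhe23 (1750 and 2900 bp) and shorter at Neurog3 (2363 and 1688 bp). Of 6 Gata factors 4 were kept, and Gata6 was lost (300 and 0 bp). Gata4 had 472 and 1172 bp.

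Of 43 forkhead genes 17 were kept and 4 lost, namely Foxb1 (754 bp in R100 and 0 in R500), Foxo3, a factor of cell survival and quiescence (300 and 0 bp), Foxf2 (450 and 100 bp) and Foxn2 (200 and 0 bp). None was gained, and the share lost was 9.3%. Foxb1 shows how a call depends on the window, since R500 had a peak that began 2147 bp downstream of its TSS. In the 5 kb upstream Foxb1 was kept, with 1197 and 700 bp. Foxq1 had 3689 and 3139 bp.

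Of 37 Wnt ligands and receptors, 18 were kept, Fzd9, Wnt5b and Wnt9b lost and Fzd5 gained (100 and 400 bp). Wnt10a had 2600 and 2740 bp, Fzd4 2500 and 1725 bp. Of 43 Fgf, Bmp and Gdf ligands 10 were kept and Fgf4, Gdf9 and Fgf17 lost, and Fgf8, a growth factor of the embryonic axis, was kept with 1746 and 2296 bp and gained upstream with 50 and 500 bp. Of 29 Notch pathway genes 12 were kept and 5 lost (17.2%), namely Hes1, the main transcriptional target of Notch (400 and 0 bp), Hes3, Hes6, Dtx3 and Rfng, and none gained. The ligand Dll1 had 2751 and 3186 bp and the target Hey1 2462 and 1839 bp. Of 82 potassium channel genes 23 were kept, 6 lost and none gained. The median GC content within 2 kb was 54.2% for the Notch list, 55.2% for forkhead and 55.6% for Wnt genes, against 48.0% over all protein-coding genes, and the part of base composition in these counts was not tested.

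**Figure D4:**
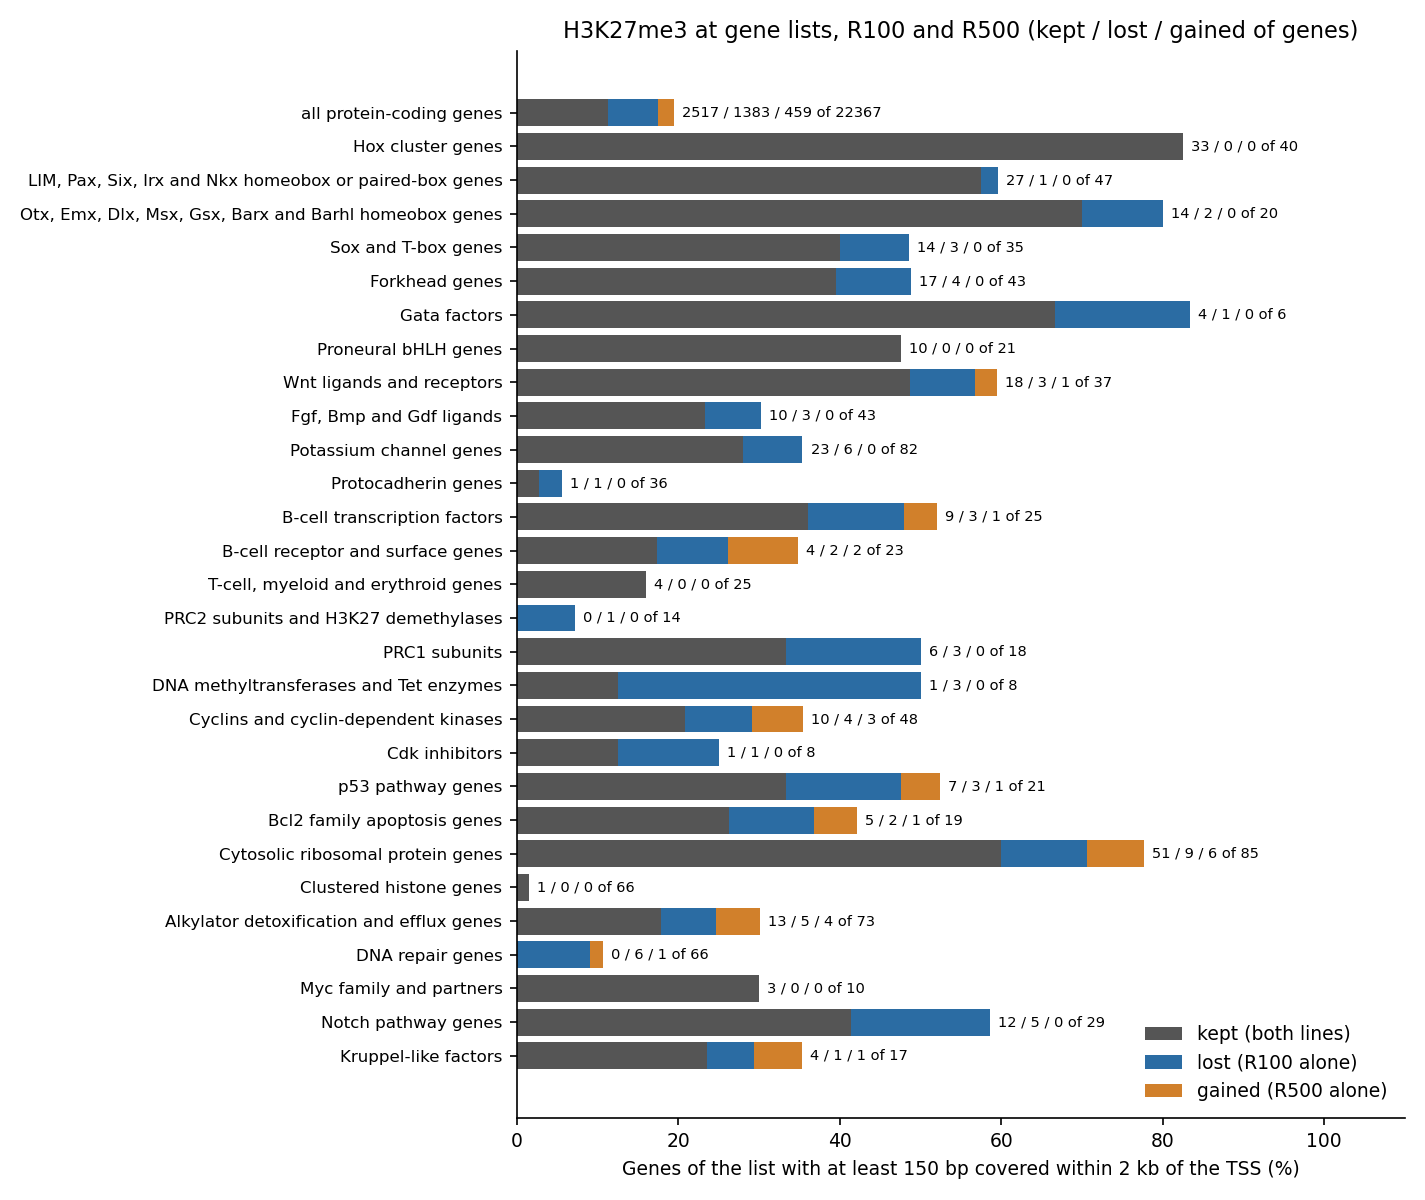
Share of the genes of each list with at least 150 bp covered within 2 kb of the TSS (percent, horizontal axis), split into kept in both lines, lost (R100 alone) and gained (R500 alone), with the counts at the end of each bar. Hox genes were kept in 33 of 40 cases with none lost or gained, while DNA repair genes had 0 kept, 6 lost and 1 gained of 66.

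Of 25 B-cell transcription factors, 9 were kept, 3 lost and 1 gained. Id1, an inhibitor of E proteins, had 2937 bp in R100 and 3137 in R500, and Id2, a related inhibitor, 707 bp in both. Bcl6, the repressor of the germinal centre, had 1100 and 850 bp. The lost ones were Id3 (400 and 50 bp), Ebf1, an early B-cell factor (269 and 100 bp), and Pou2af1 (200 and 100 bp). Myb was gained (100 and 300 bp). None of these 4 was covered by the parental list in that window. Among receptor and surface genes Cd79b, a signalling chain of the B-cell receptor, was kept with 1000 and 150 bp and Cd24a with 600 and 950 bp. The kinase Lyn was lost (350 and 0 bp), as was Vpreb1 (150 and 0 bp), and Cd40 (100 and 274 bp) and Cd22 (0 and 150 bp) were gained. Of the genes of other blood lineages, Tal1 had 1931 and 2381 bp, Tcf7 1650 and 1100 bp, and Epor 1081 and 281 bp.

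The genes of the Polycomb and DNA methylation systems themselves were looked at as a group. Of 14 PRC2 subunits and H3K27 demethylases none was kept within 2 kb, and Phf19, an accessory subunit, was lost (350 and 100 bp). Upstream the demethylase Kdm6b was kept (1027 and 600 bp), with 300 bp in the parental list, 500 bp in R1000 and 250 bp in R4000. Of 18 PRC1 subunits 6 were kept, among them Pcgf2 (2690 and 2100 bp), Cbx8 (1633 and 1533 bp), Cbx2 (1300 and 1425 bp) and Bmi1 (1050 and 1100 bp), and Phc2 (450 and 0 bp), Phc1 and Rnf2 were lost. Of 8 DNA methyltransferases and Tet enzymes Dnmt3b was kept (550 and 250 bp). Dnmt1, the maintenance methyltransferase, was lost (300 and 50 bp), as were Tet2 (150 and 50 bp) and Uhrf1 (150 and 0 bp), so that 4 were covered in R100 and 1 in R500. Upstream none was kept, and Dnmt3b (200 and 0 bp) and Dnmt3a (200 and 100 bp) were lost. These counts are small: of the 2 lost upstream, 1 was left with a minimum of 50 bp and 0 with a minimum of 300 bp or with peaks of at least 500 bp alone.

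Genes of the cell cycle and of cell death held both lost and gained members. Of 48 cyclins and cyclin-dependent kinases 10 were kept, 4 lost and 3 gained. Ccnd2, a cyclin of entry into the cycle, had 3085 and 2851 bp, Ccno 2741 and 3101 bp, and Ccna2 650 and 200 bp. Ccnf, Ccnj, Cdk9 and Cdkl4 were lost, and Cdk4 (0 and 200 bp) and Cdkl2 (0 and 150 bp) were among the gained. Upstream, however, Cdk4 was kept (811 and 1000 bp), with 450 bp in the parental list, 661 bp in R1000 and 250 bp in R4000. Of 8 Cdk inhibitors Cdkn1b was kept (450 and 200 bp) and Cdkn1c lost (150 and 100 bp). Of 21 p53 pathway genes 7 were kept, 3 lost and 1 gained. The gained gene was Fas, a death receptor, with 550 bp in R500 against 50 bp in R100; the parental line and R1000 had 200 bp each and R4000 had 0. Trp53 was lost (200 and 50 bp) with Sesn2 and Aen, and Tnfrsf10b, another death receptor, was gained upstream (78 and 478 bp). Of 19 genes of the Bcl2 family 5 were kept, Bcl2 (300 and 50 bp) and Pmaip1 lost and Bak1 (50 and 200 bp) gained. The pro-apoptotic Bik had 1859 and 1850 bp and Bok 700 and 1150 bp. Of 10 genes of the Myc family and partners 3 were kept, namely Myc (2546 and 2496 bp), Mycl1 (1700 and 1295 bp) and Mycn (931 and 150 bp). The lists do not tell the Eμ-Myc allele from the normal one.

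**Figure D5:**
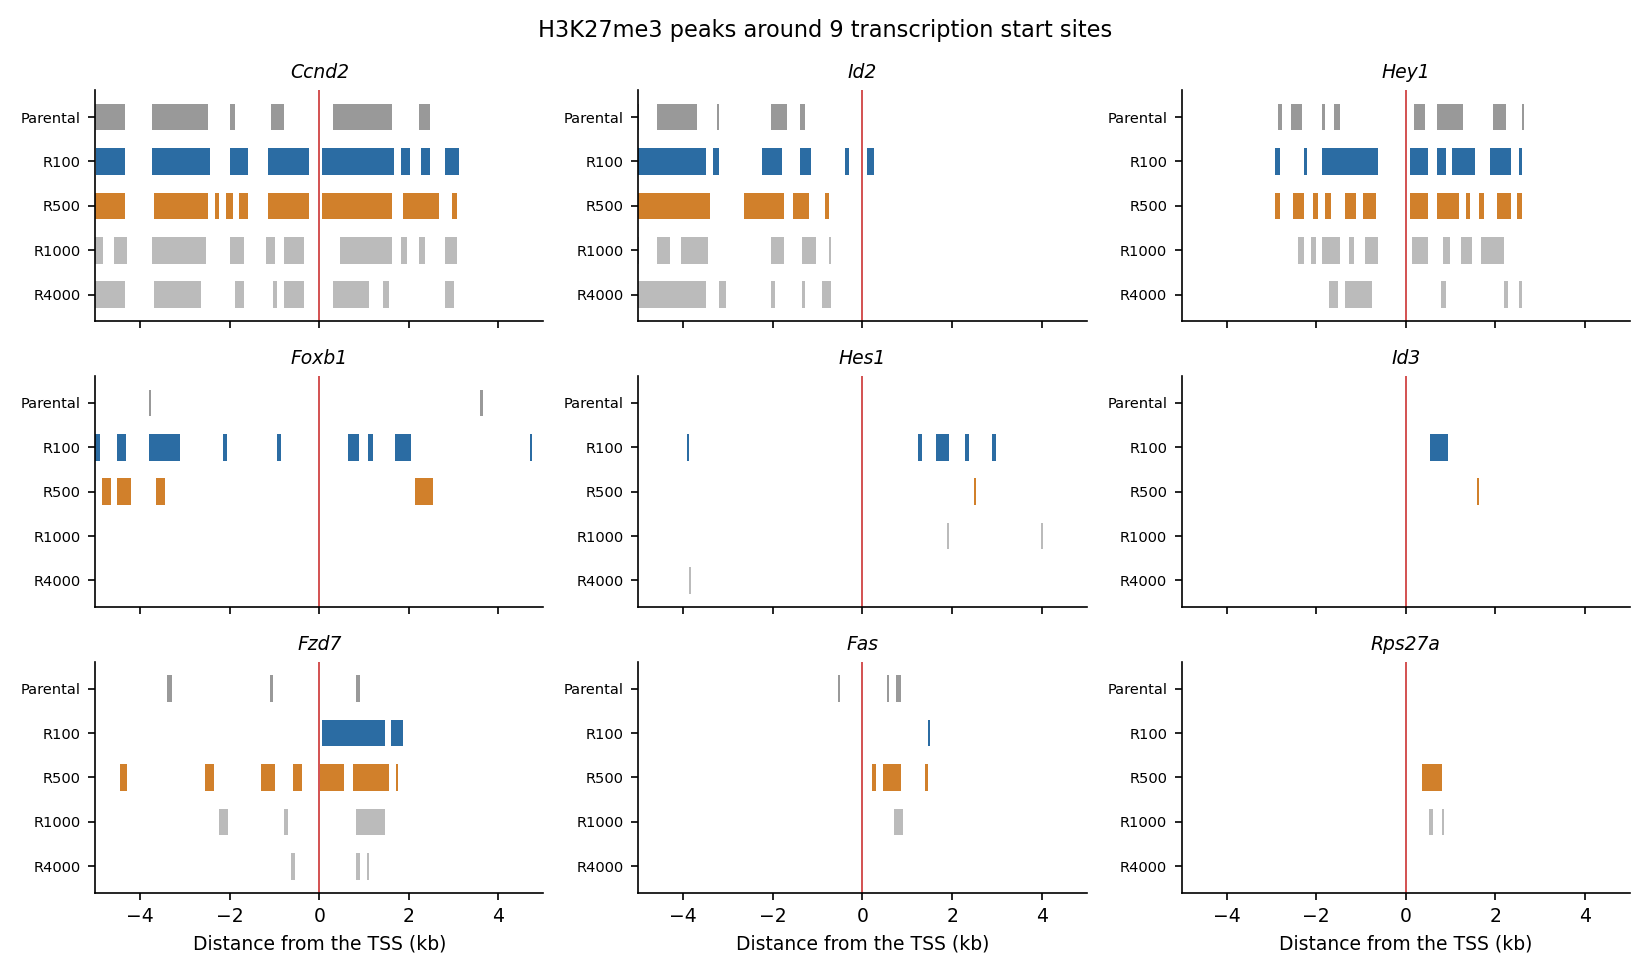
H3K27me3 peaks from 5 kb upstream to 5 kb downstream of the TSS (red line) of 9 genes in the 5 lines, R100 in blue, R500 in orange and the others in grey; downstream is to the right. Ccnd2, Id2 and Hey1 were covered in both R100 and R500, Foxb1, Hes1 and Id3 were lost within 2 kb, and Fas and Rps27a were gained there, while Fzd7 was gained upstream. In the 5 kb upstream Foxb1 was kept.

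Genes that act on alkylating agents were of interest because mafosfamide is such an agent. Of 73 detoxification and efflux genes 13 were kept, 5 lost and 4 gained. The aldehyde dehydrogenases, some of which inactivate the cyclophosphamide group, included Aldh1a2 (2105 and 2150 bp) and Aldh5a1 (850 and 1900 bp) as kept and Aldh1b1 (200 and 0 bp), Aldh6a1 and Aldh16a1 as lost. The metallothioneins Mt1 (1400 and 1450 bp) and Mt2 (1700 and 1500 bp) were kept and Mt3 was gained (0 and 200 bp). The transporter Abcc3 was lost (400 and 50 bp) and Abcc8 gained (0 and 350 bp), and the efflux pump Abcb1a was gained upstream (26 and 176 bp). Gstt3 was lost and Gstm5 and Mgst3 gained among the glutathione transferases.

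Within 2 kb DNA repair genes were rarely marked in either line. Of 66, none was kept within 2 kb, 6 were lost (9.09%) and 1 was gained (1.52%). The lost ones were Rad54l2 (350 and 0 bp), the mismatch repair gene Msh3 (300 and 0 bp) and Msh5 (300 and 0 bp). Rad50, a subunit of the break-sensing complex (250 and 0 bp), Parp1 (150 and 0 bp) and Rad51l3 (150 and 0 bp) were also lost. Xrcc5 was gained (50 and 150 bp). None of the 7 had as much as 150 bp in any of the parental, R1000 and R4000 lists. Upstream 2 genes of the list were kept (3.03%), 3 lost (4.55%) and 1 gained (1.52%). The upstream shares over all protein-coding genes were 6.4, 2.74 and 1.77%. Msh5, lost within 2 kb, was the one gained upstream (100 and 150 bp). The median GC content of the list, 47.4%, was close to that of all genes.

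Ribosomal protein genes were marked more often within 2 kb of their starts than in the 5 kb upstream. Of 85, 51 were kept within 2 kb, 9 lost (10.6%) and 6 gained (7.06%). Upstream 4 were kept (4.71%), 4 lost (4.71%) and 3 gained (3.53%), against 6.4, 2.74 and 1.77% of all protein-coding genes. The upstream window starts at the TSS and takes in the upstream part of the 2 kb window. Genes kept within 2 kb but not upstream thus had coverage downstream of the TSS in R100, R500 or both. The longest coverage within 2 kb was at Rpl10a (1250 and 1200 bp), Rpl8 (1000 and 500 bp) and Rpl12 (950 and 1250 bp). Rps14 (450 and 100 bp), Rpl36 (450 and 100 bp) and Rplp2 (350 and 50 bp) were among the lost, and Rps27a (0 and 450 bp) and Rps29 (0 and 350 bp) among the gained. Within 2 kb 9 of the genes were covered in the parental line, 36 in R1000 and 42 in R4000. These genes have many processed pseudogenes, and reads shared with such copies make their values uncertain. Of 66 clustered histone genes 1 was kept (Hist3h2ba, 700 and 1200 bp) and none lost or gained. Of 17 Kruppel-like factors 4 were kept, Klf15 lost and Klf7 gained, and of 36 protocadherin genes Pcdh1 was kept and Pcdh12 lost.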

How the data were processed

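H3K27me3 was measured by ChIP-seq in 5 lines with an antibody from Active Motif, sequenced in 50-bp reads. Per the paper's methods, the authors called peaks from counts in immunoprecipitated against input libraries in genomic windows, with Poisson statistics. The submitters' processing notes name Bowtie and mm9. The authors deposited 1 list per line with chromosome, start and end in base pairs and no count, score or p-value. For the clustering of promoters, the methods set a p-value limit for each bin, which positions alone do not allow to be applied, but whether it lies behind the lists, whether a list pools replicates and the depth are not given in the sources used here. Labels named each sample's line and assay; RRBS was not analysed here.

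The R100 and R500 files list each peak 2 times, as 50360 and 43776 rows, and distinct rows were used. The parental, R1000 and R4000 files list each peak 1 time. Coverage came from pandas 2.3.3 and numpy 2.4.6 (Python 3.11.15), and was tested on simulated data (0 of 2400 intervals differed from a base-by-base count) and checked with bedtools 2.31.1, which gave the same 8834 and 8947 overlapping peaks. Genes were those of GENCODE for NCBIM37 (mm9), 37273 in all and 22367 protein-coding, with the gene's 5′ end as TSS; a few values are not multiples of 50 bp because a window ends inside a peak. Sequence was read with pysam 0.24.0, intervals came from scipy 1.17.1 and figures from matplotlib 3.10.9. Single peaks were counted as found at an overlap of at least 1 bp, regions were also joined where peaks touched, and promoters were kept where both lines had 150 bp.

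The members and the 28 gene lists were chosen with earlier results of these data known, so list counts are descriptions. Regions and promoters named are the widest or most changed by a fixed rule, and list members those with the longest or most changed coverage, with most short lists of lost or gained genes named in full; a few items are not reported here. The 9 mapped genes were chosen after their values were seen. Of the widest kept regions only Hoxa11 is shown as sequence, a choice also made afterwards. No test between lines was possible with 1 list each.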

Additional observations from a re-analysis of the deposited data

How the results depend on the processing

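No paired analysis was possible because each line has 1 list and the labels carry no shared replicate numbers, so no replicate could be left out either. Over all 37273 genes, upstream windows held 1975 kept, 817 lost and 521 gained promoters (1.57 lost per gained). Lost exceeded gained in each other promoter setting tried, from 1.35 with at least 300 bp covered to 2.85 within 2 kb. The share of R100 peaks found in R500 (35.1%) and of R500 peaks found in R100 (40.9%) became 65.5 and 69.3% among peaks of at least 500 bp in both lists, 32.7 and 39.4% with peaks within 1000 bp joined, 28.0 and 33.8% when 50% of a peak had to be covered, 39.1 and 39.8% with the 21888 widest peaks of each list, and 62.2 and 70.4% when a peak within 1000 bp sufficed. Within 2 kb 3123 promoters were kept and 1590 lost. With 50 bp as the minimum 2969 were kept, 1888 lost and 1069 gained, with 300 bp 401 were lost and 296 gained, and with peaks of at least 500 bp 663 were kept, 289 lost and 195 gained. Requiring 0 bp in the other line left 444 lost and 241 gained. Chosen after seeing the data, joining peaks within 1000 bp gave 5174 kept, 10065 lost and 7470 gained regions. The ratio of lost to gained regions turned below 1 at a GC content under 40% (0.342), at 40 to 45% (0.51) and at 45 to 50% (0.988), and was 1.95 at 55 to 60%, 2.16 at 60 to 65%, 2.64 at 65 to 70% and 2.23 from 70%. The cause was not tested. Unknown depth limits all counts of narrow peaks.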
